A study of Mus musculus with 10 samples.

Results

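The FOXO transcription factors and genes that restrain growth and activation of resting T cells were followed in mouse naive CD4 T cells: Foxo1, Foxo3, Pik3ip1, Ddit4, Txnip, Tsc22d3, Fbxo32, Dapl1 and Slfn2. The 9 genes were chosen by name, with earlier results of these data known. Comparisons of their counts with those of all genes are therefore not independent of that choice. They are 9 of the 26298 genes that had an estimated count in at least 1 of 10 RNA-seq libraries, and all 9 passed the filter on low counts that left 14417 genes for testing. T cells were sorted from C57BL/6 spleens as CD4+CD62L+CD69- cells, and the labels call them naive. This gate names no CD44, so it does not exclude cells that have met antigen and carry CD62L. No source used here gives the age, the sex or the number of the animals. The libraries formed 4 groups. Stimulated cells that had been exposed to 12.5 µM Compound 10 gave 3 libraries, and stimulated cells exposed to the solvent DMSO (vehicle) gave 2. Unstimulated cells exposed to Compound 10 gave 2 libraries, and unstimulated cells exposed to vehicle gave 3. Exposure began 1 h before stimulation, which lasted 2 h and used 10 nM PMA, which switches on protein kinase C, together with 1 µM of the calcium ionophore ionomycin. Unstimulated cells are recorded with 1 h of exposure and 0 h of stimulation, without a total time in culture. If they were collected earlier than stimulated cells, time and stimulation cannot be told apart. Per the series, Compound 10 is a small-molecule inhibitor of the complex that NFAT forms on DNA with AP-1, a dimer of Fos and Jun family proteins. The labels do not say that libraries of a group came from separate mice or cultures, so the p-values below rest on the spread among these libraries alone, which may be technical.

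FOXO factors sit in the nucleus of a resting T cell and drive genes for survival, homing and slow metabolism. When the antigen receptor or growth factors activate PI3K, the kinase AKT phosphorylates FOXO proteins and they leave the nucleus, while AKT also releases the growth kinase mTORC1. FOXO activity is therefore set largely by protein location, which RNA levels do not show. The other genes followed here act along this axis or beside it. Pik3ip1 encodes a membrane protein that inhibits PI3K, and Ddit4 encodes a stress-induced inhibitor of mTORC1. Txnip encodes an arrestin-like protein that binds thioredoxin and limits glucose uptake. Tsc22d3 encodes the glucocorticoid-induced leucine zipper, which dampens T cell activation. Fbxo32 encodes the substrate-binding subunit of a ubiquitin ligase and is a FOXO target in mouse muscle. Slfn2 is required for mouse T cells to stay quiescent, and Dapl1 encodes a homologue of death-associated protein 1.

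Library totals ran between 10694591 and 33486259 estimated counts. The 2 deepest libraries, the second unstimulated Compound 10 library and the third unstimulated vehicle library, stood apart: the 3 within-group pairs that held one of them differed by a chi-square per degree of freedom of 87.0 to 124, against 14.8 to 46.1 in the 5 other pairs. Every within-group pair thus differed by more than repeat sequencing of 1 library would give. The check cannot tell whether libraries came from separate cultures or from the same RNA. Ribosomal RNA gene models held 4.28% to 9.24% of the counts in stimulated libraries and 1.23% to 3.98% in unstimulated ones, and leaving these models out gave the same number of called genes among the 9 in each comparison. Levels are CPM, counts brought to a common library size, with TMM scaling factors of 0.731 to 0.850 in stimulated libraries and 1.20 to 1.34 in unstimulated ones. All 11 T cell identity markers had counts, and their summed level was 1745 CPM or more in every library. B cell markers summed to at most 9.39 CPM, myeloid markers to at most 3.21 CPM and erythroid markers to at most 0.466 CPM. Cd69 RNA, whose protein the gate had required to be absent, was at 4077 CPM or more in stimulated libraries and at 283 to 330 CPM in unstimulated ones.

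Stimulation lowered 4 of the 9 genes in both treatments: Fbxo32, Tsc22d3, Txnip and Pik3ip1. Under vehicle Foxo1 rose as well, so 1 gene was higher and 4 were lower in stimulated than in unstimulated cells, where 39% of all tested genes were called in either direction (19.5% of all tested genes as higher and 19.4% as lower). A gene is called, and described as higher, lower, risen or fallen, where edgeR's quasi-likelihood test gave a Benjamini-Hochberg adjusted p under 0.05 over all 14417 genes. The groups did not overlap for 5 of the 9 genes, as for 62.5% of all genes. With Compound 10 in both arms 4 genes were called, each as lower, against 26.5% of all genes called (12.8% higher, 13.7% lower), and the groups did not overlap for 8 of the 9 genes, as for 50.4% of all genes. The median log2 fold change of the 9 genes was 0.18 with Compound 10, beside -0.01 over all genes, and -0.19 under vehicle, beside -0.06 over all genes. The stimulation contrasts with Compound 10 and under vehicle share no library.

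Compound 10 raised Ddit4, Tsc22d3 and Pik3ip1 and lowered Foxo1 in stimulated cells. These 4 of 9 calls stood against 23.2% of all genes called (10.4% of all genes higher, 12.8% lower). The libraries of the stimulated groups did not overlap for any of the 9 genes, as for 54.6% of all genes, and the Compound 10 libraries were the higher ones for 7 genes (not for Foxo1 and Slfn2). The median log2 fold change of the 9 genes was 0.59, beside 0.04 over all genes. In unstimulated cells Compound 10 raised Pik3ip1 and lowered Slfn2, against 8.43% of all genes called (4.65% higher, 3.78% lower). The groups did not overlap for 3 of the 9 genes, Pik3ip1, Ddit4 and Slfn2, as for 37.9% of all genes. There the median of the 9 genes was 0.12, beside 0.00 over all genes. The count for stimulated cells depended on the libraries and the model, and so did the count over all genes. With the index run (the run of sample numbers) as a term it was 7, and 4595 of all genes were called, against 3350 in the main fit. It was smaller without the first stimulated vehicle library, which leaves 1 library in that group. The estimates there were 0.71 for Pik3ip1, 1.07 for Ddit4 and -0.77 for Foxo1. The count for unstimulated cells was 1 (Pik3ip1) with only the groups compared, where 122 of all genes were called, against 1215 in the main fit. Slfn2 gave -0.64 without the first and -0.67 without the second unstimulated Compound 10 library.

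**Figure D1:**
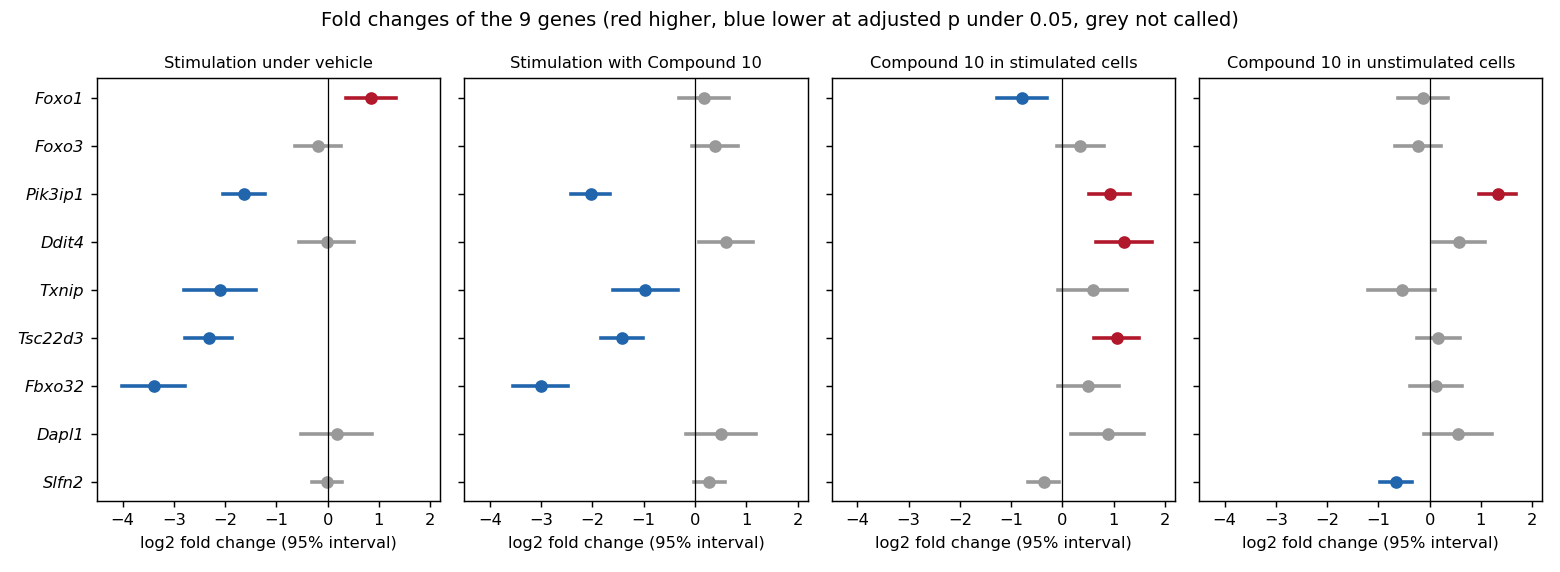
Log2 fold change of each of the 9 genes (points) with its 95% interval (bars) in the 4 comparisons, the horizontal axis running over log2 units and the vertical line marking no difference. Red points were called higher, blue points lower and grey points were not called; the falls of Pik3ip1, Txnip, Tsc22d3 and Fbxo32 appear in both panels on stimulation, and Pik3ip1 is to the right of 0 in both panels on Compound 10.

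Markers of memory or effector T cells moved with stimulation and with the compound. Their summed level was 110 to 129 CPM in stimulated Compound 10 libraries and 226 to 238 CPM in stimulated vehicle libraries. In unstimulated cells it was 93.8 to 101 CPM with Compound 10 and 44.4 to 61.4 CPM with vehicle. The 11 genes of this list all had counts. Among them Cd44 was at 28.3 to 30.2 CPM in stimulated vehicle libraries and 4.33 to 6.14 CPM in unstimulated ones. With Compound 10 it was at 15.9 to 24.4 CPM in stimulated and 11.2 to 15.3 CPM in unstimulated libraries. The sum moved within 2 h of stimulation, so it is not read as a share of memory cells. Regulatory T cell markers, a list that includes the activation-induced genes Il2ra and Ctla4, summed to 83.6 to 119.9 CPM in stimulated Compound 10 libraries, against 204 to 252 CPM in stimulated vehicle libraries, while Foxp3 itself was at 2.30 to 4.63 CPM and 4.76 to 6.84 CPM in those libraries. The 2 CD8 T cell markers summed to 2.54 to 7.20 CPM in stimulated Compound 10 libraries and 10.47 to 10.56 CPM in stimulated vehicle libraries. The 3 of 6 natural killer cell markers with counts summed to 4.51 to 8.31 CPM in stimulated libraries and 1.18 to 3.19 CPM in unstimulated ones. The part of these markers in the results on the 9 genes was not tested. In bulk RNA, fewer cells of a type and less RNA per cell cannot be told apart.

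Foxo1 (chr3:52268336-52353221, plus strand, mm10) encodes the main FOXO factor of naive T cells. It was at 137, 104 and 126 CPM in stimulated Compound 10 libraries and at 214 and 209 CPM in stimulated vehicle libraries. Unstimulated cells had 88.45 and 127.5 CPM with Compound 10 and 95.5, 153 and 107 CPM with vehicle. The 2 stimulated vehicle libraries were above all 8 others, and the other groups overlapped. Stimulation under vehicle raised Foxo1 by a log2 fold change of 0.84 ± 0.22 (SE; edgeR adjusted p = 0.0108), and Compound 10 lowered it in stimulated cells by -0.79 ± 0.22 (edgeR adjusted p = 0.0238). With Compound 10 in both arms, the effect of stimulation was 0.18 ± 0.23 (edgeR adjusted p = 0.621), with a 95% interval of -0.32 to 0.67. In unstimulated cells Compound 10 gave -0.13 ± 0.23 (edgeR adjusted p = 0.789). The rise is relative to the other genes of the library: without scaling beyond the library totals it was 0.05 (edgeR adjusted p = 0.855), a setting that moved the median of all genes in that contrast to -0.83. It was not called without the first (0.81, edgeR adjusted p = 0.0705) or the second (0.84, edgeR adjusted p = 0.0588) stimulated vehicle library. The lower level with Compound 10 was not called with upper-quartile factors (-0.66, edgeR adjusted p = 0.0551) or without the first (-0.77, edgeR adjusted p = 0.129) or the second (-0.80, edgeR adjusted p = 0.110) stimulated vehicle library. It was also not called without the second (-0.69, edgeR adjusted p = 0.0856) or the third (-0.81, edgeR adjusted p = 0.0505) stimulated Compound 10 library.

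Foxo3 (chr10:42181841-42276755, minus strand), the second FOXO factor, was called in none of the comparisons. Its level was 142, 118 and 119 CPM in stimulated Compound 10 libraries, 103 and 95.7 CPM in stimulated vehicle libraries, 83.8 and 109.5 CPM in unstimulated Compound 10 libraries, and 89.9, 106 and 143 CPM in unstimulated vehicle libraries. The stimulated Compound 10 libraries were above both stimulated vehicle libraries and both unstimulated Compound 10 libraries, but not above the deepest of the unstimulated vehicle libraries. The log2 fold change for Compound 10 in stimulated cells was 0.35 ± 0.21 (edgeR adjusted p = 0.263), with a 95% interval of -0.11 to 0.80, and in unstimulated cells it was -0.22 ± 0.21 (edgeR adjusted p = 0.563). The interaction was 0.57 ± 0.29 (edgeR adjusted p = 0.285). For stimulation with Compound 10 it was 0.39 ± 0.21 (edgeR adjusted p = 0.203), and for stimulation under vehicle it was -0.19 ± 0.21 (edgeR adjusted p = 0.513). Stimulation with Compound 10 was called without the 2 deepest libraries (0.56, edgeR adjusted p = 0.0440). Without scaling beyond the library totals, stimulation under vehicle gave -0.96 (edgeR adjusted p = 0.00176).

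**Figure D2:**
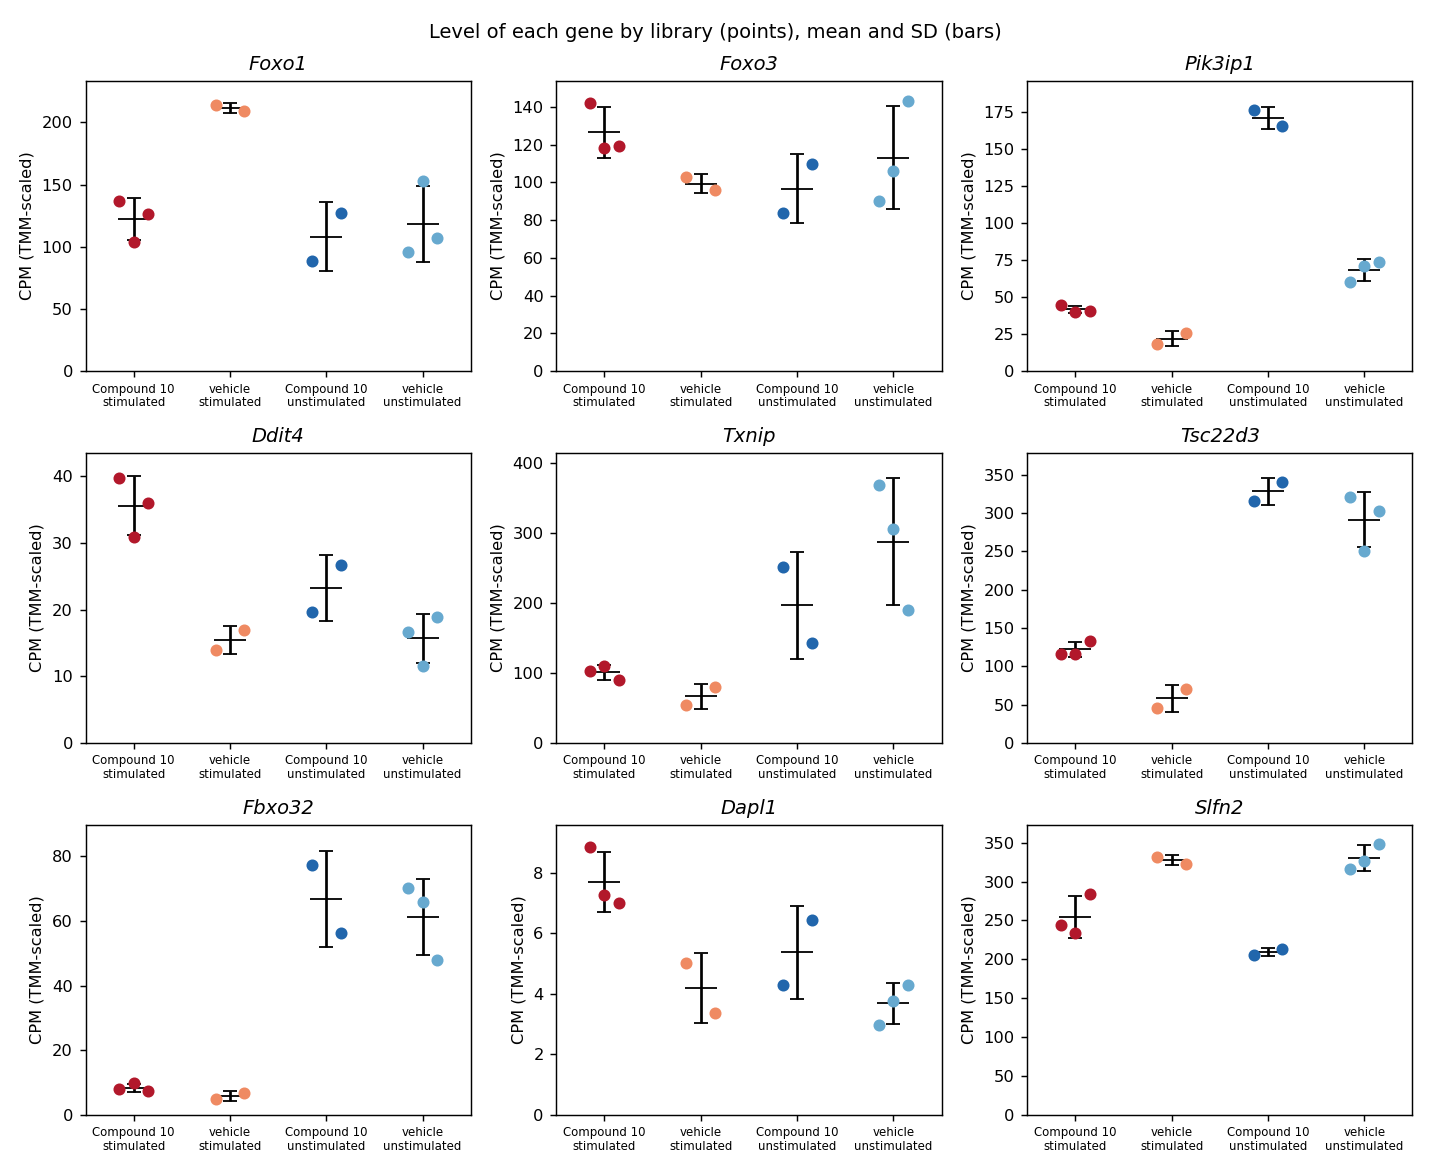
TMM-scaled CPM of each of the 9 genes in every library (points) of the 4 groups, with the group mean (horizontal line) and SD (bars); each panel has its own vertical axis starting at 0. Pik3ip1, Txnip, Tsc22d3 and Fbxo32 are lower in both stimulated groups than in both unstimulated groups, while Ddit4 and Dapl1 are highest in the 3 stimulated Compound 10 libraries.

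Pik3ip1 (chr11:3330401-3342971, plus strand) was the gene of the set that Compound 10 moved in both states. It was at 44.2, 39.8 and 40.8 CPM in stimulated Compound 10 libraries and at 18.2 and 25.4 CPM in stimulated vehicle libraries. In unstimulated cells it was at 176 and 165.5 CPM with Compound 10 and at 59.7, 71.1 and 73.7 CPM with vehicle. None of the 4 groups overlapped, and their order was unstimulated Compound 10, unstimulated vehicle, stimulated Compound 10, stimulated vehicle. Compound 10 raised it by 0.92 ± 0.18 on the log2 scale in stimulated cells (1.90-fold, edgeR adjusted p = 0.00380) and by 1.32 ± 0.17 in unstimulated cells (2.50-fold, edgeR adjusted p = 0.00151). The difference between these effects, the interaction, was -0.40 ± 0.25 (edgeR adjusted p = 0.388), with a 95% interval of -0.94 to 0.14. Stimulation lowered Pik3ip1 by a log2 fold change of -2.04 ± 0.17 with Compound 10 (edgeR adjusted p = 1.27e-05) and -1.64 ± 0.19 under vehicle (edgeR adjusted p = 4.36e-05). The rise in stimulated cells was not called without the first stimulated vehicle library (0.71, edgeR adjusted p = 0.0688). The rise in unstimulated cells was called under all 20 alternatives, with values of 1.25 to 1.44.

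Ddit4 (chr10:59949669-59951834, minus strand) had its highest levels in stimulated cells that had received Compound 10. The levels there were 39.8, 30.9 and 36.0 CPM, against 13.9 and 17.0 CPM in stimulated vehicle libraries. Unstimulated libraries had 19.7 and 26.7 CPM with Compound 10 and 16.6, 11.6 and 18.8 CPM with vehicle. The 3 stimulated Compound 10 libraries were above all others, and the stimulated and unstimulated vehicle libraries overlapped. Compound 10 raised Ddit4 in stimulated cells by a log2 fold change of 1.20 ± 0.25 (2.30-fold, edgeR adjusted p = 0.00526), the largest of the 9 genes in that comparison. In unstimulated cells the estimate was 0.57 ± 0.23 (edgeR adjusted p = 0.165), with a 95% interval of 0.06 to 1.08, and the groups did not overlap. The interaction was 0.63 ± 0.34 (edgeR adjusted p = 0.317), so the effects in the 2 states were not shown to differ. Stimulation with Compound 10 gave 0.61 ± 0.24 (edgeR adjusted p = 0.0840), called in 2 of 20 alternatives, with the index run as a term (edgeR adjusted p = 0.0397) and without the 2 deepest libraries (edgeR adjusted p = 0.0438). Stimulation under vehicle gave -0.02 ± 0.24 (edgeR adjusted p = 0.963). That value rests on the scaling, since it was -0.78 without scaling beyond the library totals (edgeR adjusted p = 0.0154). The rise with Compound 10 in stimulated cells was not called without the first stimulated vehicle library (1.07, edgeR adjusted p = 0.0750).

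The windows before the RefSeq starts of 3 genes are shown. Pik3ip1 was taken because it responded to Compound 10 in both states. The windows of Txnip and Dapl1 are the only ones of the set that hold the FOXO motif, so they are not typical of the set. Each holds the 250 bases before a RefSeq start site (GRCm38.p6), 5′ to 3′ on the strand of the gene. Capitals mark a match to the FOXO motif GTAAACA, and would also mark the AP-1 motif TGANTCA and the E-box CACGTG, on either strand. They belong to Txnip (chr3:96557707-96557956), Dapl1 (chr2:59484403-59484652) and Pik3ip1 (chr11:3330481-3330730), all on the plus strand. The Pik3ip1 window lies inside the GENCODE span of that gene, which begins before the RefSeq start, and base positions count from the RefSeq start.
Txnip: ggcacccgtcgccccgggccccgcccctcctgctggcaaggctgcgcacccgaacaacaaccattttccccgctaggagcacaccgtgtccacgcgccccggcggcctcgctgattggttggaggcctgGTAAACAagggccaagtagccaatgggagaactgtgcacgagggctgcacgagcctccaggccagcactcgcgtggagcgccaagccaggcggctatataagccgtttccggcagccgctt
Dapl1: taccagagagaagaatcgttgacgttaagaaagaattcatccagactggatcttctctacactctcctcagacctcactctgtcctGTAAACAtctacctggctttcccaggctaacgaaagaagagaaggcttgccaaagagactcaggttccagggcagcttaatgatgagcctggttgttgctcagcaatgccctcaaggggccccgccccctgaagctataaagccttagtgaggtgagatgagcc
Pik3ip1: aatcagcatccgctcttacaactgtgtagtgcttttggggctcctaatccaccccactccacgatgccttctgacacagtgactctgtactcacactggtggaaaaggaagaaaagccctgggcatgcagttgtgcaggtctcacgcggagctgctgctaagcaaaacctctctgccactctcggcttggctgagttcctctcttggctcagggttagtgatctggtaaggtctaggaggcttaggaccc
RefSeq windows were found for 8 of the 9 genes (10 start sites). The FOXO motif was in the windows of 2 of these 8 genes, Txnip at base -121 and Dapl1 at base -164 relative to the start, and in 3.17% of the 32851 windows of all genes. The AP-1 motif and the E-box were in none of the 8, and in 6.75% and 6.02% of all windows. The NFAT core GGAAA was in windows of 6 of the 8 genes and in 55.6% of all windows. It occurs in the Pik3ip1 window at base -150 and does not overlap the FOXO motif in the Txnip or Dapl1 window. The counts are of genes and the shares of single windows, and Tsc22d3 has 3 windows. Its window with the NFAT core lies inside its main transcript model, Tsc22d3-201. A match is a description of the letters and not evidence that a factor binds, and no match says only that these letters are not in the window.

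Txnip (chr3:96557957-96561883, plus strand) was lower after stimulation in both treatments. It was at 103, 110 and 89.6 CPM in stimulated Compound 10 libraries, 54.1 and 79.5 CPM in stimulated vehicle libraries, 251 and 143 CPM in unstimulated Compound 10 libraries, and 369, 305 and 189.7 CPM in unstimulated vehicle libraries. The lowest value of each unstimulated group came from its deepest library. Stimulation lowered it by a log2 fold change of -0.97 ± 0.29 with Compound 10 (edgeR adjusted p = 0.0300) and -2.10 ± 0.32 under vehicle (edgeR adjusted p = 0.000362). The fall with Compound 10 was -0.51 and not called without the first unstimulated Compound 10 library (edgeR adjusted p = 0.293). It was also not called without the first (-0.98, edgeR adjusted p = 0.0748), the second (-1.03, edgeR adjusted p = 0.0617) or the third (-0.89, edgeR adjusted p = 0.0905) stimulated Compound 10 library, with values close to that from all libraries. For Compound 10 the estimates were 0.59 ± 0.30 in stimulated cells (edgeR adjusted p = 0.191) and -0.55 ± 0.30 in unstimulated cells (edgeR adjusted p = 0.301). The first was called in 4 of 20 alternatives: with no filter on low counts (0.62, edgeR adjusted p = 0.0190), with only the groups compared (0.62, edgeR adjusted p = 0.0213), with the index run (the run of sample numbers) as a term (0.80, edgeR adjusted p = 0.0102) and without the 2 deepest libraries (0.58, edgeR adjusted p = 0.0269). Their difference, the interaction, was 1.14 ± 0.43 (edgeR adjusted p = 0.138), with a 95% interval of 0.20 to 2.07. It was called in 4 of 19 alternatives: with no filter (1.17, edgeR adjusted p = 0.00212), with the replicate block (1.46, edgeR adjusted p = 0.0440), with the index run as a term (1.30, edgeR adjusted p = 0.0106) and without the third unstimulated vehicle library (1.37, edgeR adjusted p = 0.0328).

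Tsc22d3 (chrX:140539528-140600659, minus strand) fell with stimulation and was higher with Compound 10 among stimulated cells. It was at 116, 117 and 133 CPM in stimulated Compound 10 libraries and at 45.6 and 70.9 CPM in stimulated vehicle libraries. Unstimulated libraries had 316 and 340.4 CPM with Compound 10 and 320.5, 251 and 303 CPM with vehicle. The stimulated groups did not overlap with each other or with the unstimulated ones, which overlapped. Stimulation lowered Tsc22d3 by a log2 fold change of -1.43 ± 0.19 with Compound 10 (2.69-fold, edgeR adjusted p = 0.000269) and -2.32 ± 0.21 under vehicle (4.99-fold, edgeR adjusted p = 7.83e-06). Compound 10 raised it in stimulated cells by 1.06 ± 0.20 (2.09-fold, edgeR adjusted p = 0.00280), a call that held under all 20 alternatives with values of 0.78 to 1.43. In unstimulated cells the estimate was 0.17 ± 0.19 (edgeR adjusted p = 0.641), with a 95% interval of -0.24 to 0.58. The interaction was 0.89 ± 0.27 (edgeR adjusted p = 0.0765), and edgeR called it in 3 of the alternatives and DESeq2 gave an adjusted p of 0.0261.

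Fbxo32 (chr15:58175879-58214932, minus strand) fell furthest with stimulation among the 9 genes. It was at 7.85, 9.77 and 7.16 CPM in stimulated Compound 10 libraries and at 4.76 and 6.75 CPM in stimulated vehicle libraries, against 77.3 and 56.2 CPM in unstimulated Compound 10 libraries and 70.2, 65.8 and 47.8 CPM in unstimulated vehicle libraries. Every stimulated library was below every unstimulated one. The log2 fold change with Compound 10 in both arms was -3.01 ± 0.24 (8.06-fold, edgeR adjusted p = 8.74e-06), beside -3.39 ± 0.28 under vehicle (10.51-fold, edgeR adjusted p = 3.97e-06). Compound 10 gave 0.51 ± 0.27 in stimulated cells (edgeR adjusted p = 0.204) and 0.12 ± 0.23 in unstimulated cells (edgeR adjusted p = 0.806), and the interaction was 0.38 ± 0.35 (edgeR adjusted p = 0.584). The stimulated libraries that carry these values held few Fbxo32 counts, 266 over 3 Compound 10 libraries and 115 over 2 vehicle libraries.

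Dapl1 (chr2:59484653-59505020, plus strand) was the least counted of the 9 genes. Its level was 8.84, 7.28 and 6.99 CPM in stimulated Compound 10 libraries, 5.02 and 3.38 CPM in stimulated vehicle libraries, 4.28 and 6.45 CPM in unstimulated Compound 10 libraries, and 2.96, 3.78 and 4.30 CPM in unstimulated vehicle libraries. The 3 stimulated Compound 10 libraries were above all others, and the other groups overlapped. No comparison was called, and the largest estimate was 0.88 ± 0.33 for Compound 10 in stimulated cells (edgeR adjusted p = 0.0730), with a 95% interval of 0.17 to 1.60. It was called in 4 of 20 alternatives, 1 of them without the 2 deepest libraries (0.88, edgeR adjusted p = 0.0425). In unstimulated cells Compound 10 gave 0.55 ± 0.30 (edgeR adjusted p = 0.306), and the interaction was 0.34 ± 0.44 (edgeR adjusted p = 0.723). Stimulation gave 0.51 ± 0.31 with Compound 10 (edgeR adjusted p = 0.260) and 0.17 ± 0.32 under vehicle (edgeR adjusted p = 0.708). The sums behind the estimate in stimulated cells were 244 counts over 3 Compound 10 libraries and 78 over 2 vehicle libraries.

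Slfn2 (chr11:83065112-83070678, plus strand) was lower with Compound 10 than with vehicle in unstimulated cells. It was at 244, 234 and 284 CPM in stimulated Compound 10 libraries and at 332 and 323 CPM in stimulated vehicle libraries. Unstimulated cells had 206 and 213 CPM with Compound 10 and 316, 327 and 348 CPM with vehicle. Every Compound 10 library was below every vehicle library, and the vehicle groups overlapped. The log2 fold change for Compound 10 was -0.66 ± 0.14 in unstimulated cells (edgeR adjusted p = 0.0174) and -0.37 ± 0.14 in stimulated cells (edgeR adjusted p = 0.0743). The first was not called without the first (-0.64, edgeR adjusted p = 0.0823) or the second (-0.67, edgeR adjusted p = 0.106) unstimulated Compound 10 library, without the 2 deepest libraries (-0.63, edgeR adjusted p = 0.0730), or with only the groups compared (-0.64, edgeR adjusted p = 0.0882). The second was called in 5 of 20 alternatives. The interaction was 0.29 ± 0.19 (edgeR adjusted p = 0.426). Stimulation with Compound 10 gave 0.28 ± 0.14 (edgeR adjusted p = 0.162). Stimulation under vehicle gave -0.01 ± 0.14 (edgeR adjusted p = 0.956), with a 95% interval of -0.31 to 0.29, and -0.79 without scaling beyond the library totals (edgeR adjusted p = 0.000641).

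The sample numbers in the deposited library names fall into 3 runs, each with at most 1 library of a group, and the sources do not say what the runs are. Within the 2 runs that hold both groups of a comparison, each called value of the 9 genes kept its direction. For Compound 10 in stimulated cells the log2 differences of the 2 pairs were 1.51 and 0.86 for Ddit4, 1.35 and 0.72 for Tsc22d3, 1.28 and 0.64 for Pik3ip1, and -0.65 and -1.01 for Foxo1. In unstimulated cells they were 1.31 and 1.17 for Pik3ip1 and -0.67 and -0.71 for Slfn2. For stimulation under vehicle the pairs of Foxo1 gave 1.16 and 0.45, while those of Fbxo32 gave -3.85 and -3.26, those of Tsc22d3 -2.81 and -1.82, those of Txnip -2.77 and -1.94, and those of Pik3ip1 -1.71 and -1.48. For stimulation with Compound 10 the pairs of Txnip gave -1.19 and -0.67, the smallest of the 4 genes called there.

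The interaction asks whether stimulation acted differently with Compound 10 than with vehicle. It was called for 0 of the 9 genes by edgeR, against 6.63% of all genes (2.55% higher, 4.08% lower), and for 1 of them, Tsc22d3, by DESeq2. At an unadjusted p under 0.05 there were 2, Tsc22d3 and Txnip. The estimate was above 0 for 7 of the 9 genes, with a median of 0.38 beside 0.00 over all genes. The exceptions were Foxo1 (-0.66 ± 0.32, edgeR adjusted p = 0.250) and Pik3ip1. For Tsc22d3, the gene with the smallest adjusted p, the fall on stimulation was -1.43 with Compound 10 and -2.32 with vehicle. These contrasts reuse the same 10 libraries, so the estimates are not independent of those above.

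To compare the genes with each other, the deposited TPM values, which correct for transcript length, were summed per gene. In stimulated Compound 10 cells the mean TPM was 179 ± 12.3 for Slfn2, 71.7 ± 3.61 for Tsc22d3, 40.5 ± 6.53 for Txnip and 36.4 ± 3.32 for Pik3ip1 (SD, n = 3), and Txnip overlapped Pik3ip1. In stimulated vehicle cells Slfn2 led with 217 ± 2.75 TPM, followed by Tsc22d3 (31.7 ± 10.8), Txnip (24.9 ± 7.47) and Foxo1 (24.2 ± 0.341; SD, n = 2), each of the last 3 overlapping its neighbour. Fbxo32 was last of the 9 in both stimulated groups, with 1.28 ± 0.289 TPM with Compound 10 and 0.829 ± 0.233 TPM with vehicle. Tsc22d3 led in unstimulated Compound 10 cells with 286 ± 8.81 TPM, ahead of Slfn2 with 221 ± 14.3 and Pik3ip1 with 187 ± 57.6 (SD, n = 2), and Slfn2 overlapped Pik3ip1. In unstimulated vehicle cells the order was Slfn2 (376 ± 21.9), Tsc22d3 (272 ± 28.98), Txnip (213 ± 70.5) and Pik3ip1 (84.2 ± 11.5; SD, n = 3), and Tsc22d3 overlapped Txnip. The other 5 genes lay close together there, at 30.3 for Foxo3, 23.5 for Foxo1, 17.4 for Ddit4, 16.5 for Dapl1 and 15.3 for Fbxo32, each overlapping the next in that order. TPM values carry no TMM factor, so a gene's own change with stimulation is not read from them.

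Most of the 9 genes were carried by 1 transcript model. Foxo1, Ddit4, Fbxo32 and Slfn2 have a single model, and the second model of Dapl1 had 0 counts in every library. Tsc22d3-201, a short coding transcript, held 92.3% to 98.1% of the counts of its gene in all libraries, and Foxo3-203 held 91.4% to 98.7%. The reads of Txnip were shared between the near-identical models Txnip-201 and Txnip-202, whose split is uncertain for that reason. Pik3ip1-210, a model with a retained intron, held 3.42% to 5.56% of the gene's counts in stimulated Compound 10 libraries and 4.80% to 6.21% in stimulated vehicle libraries, against 16.6% to 17.4% in unstimulated Compound 10 libraries and 14.3% to 20.5% in unstimulated vehicle libraries. The stimulated and unstimulated libraries therefore did not overlap in this share, and the treatments did within each state. The share of Foxo3-202, a model that spans less of the locus, was 3.31% to 8.47% and 6.20% to 7.40% in stimulated Compound 10 and vehicle libraries, and 2.41% to 3.37% and 1.28% to 1.93% in unstimulated Compound 10 and vehicle libraries. These shares come from the authors' assignment of reads to overlapping models and were not tested. Antisense models overlap exons of Foxo1, Txnip and Fbxo32, and a noncoding model on the other strand overlaps 91 bases of Pik3ip1. The libraries do not record the strand, so reads in the overlaps cannot be told apart. The overlapping models held at most 176.2 counts in a library (Gm15441, at Txnip).

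**Figure D3:**
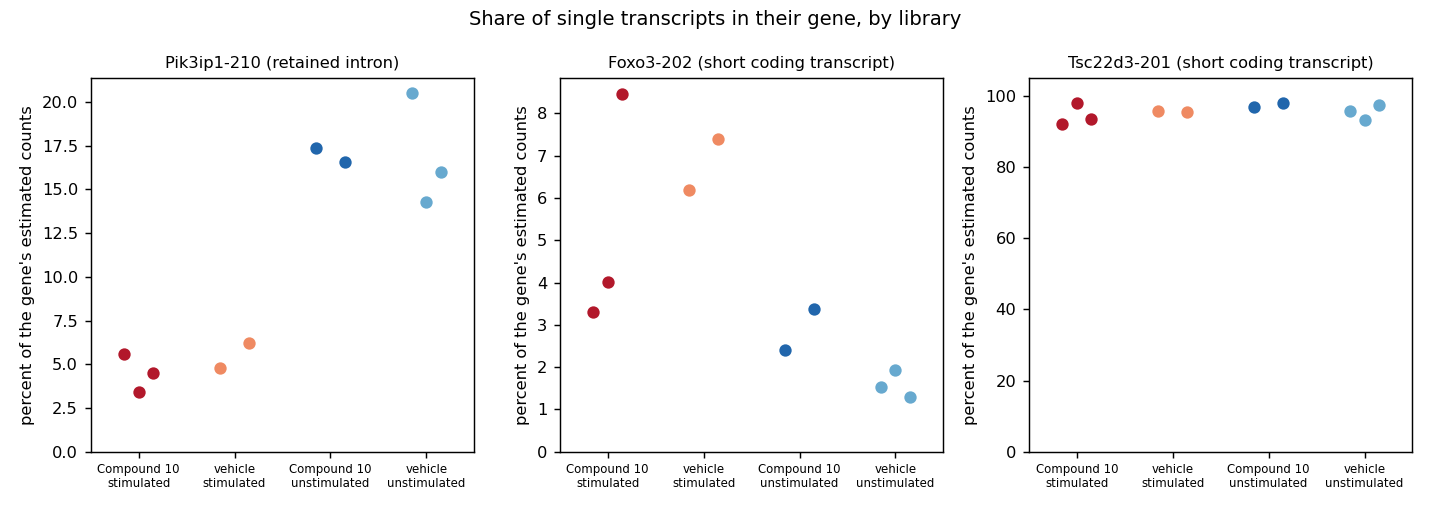
Share of a gene's estimated counts assigned to single transcript models (percent, vertical axes from 0) in each library of the 4 groups. The share of Pik3ip1-210 is 6.21% or less in stimulated libraries and 14.3% or more in unstimulated ones, while Tsc22d3-201 stays at 92.3% or more throughout.

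Other genes had profiles close to those of the 9 across the 10 libraries. Likeness was measured as the root-mean-square difference between log2 CPM profiles, each centred on its own mean, and the 2 nearest other protein-coding genes were taken for each gene. The nearest profile was that of Dut to Slfn2 (0.09), followed by Glcci1 to Slfn2 (0.11), Thra to Tsc22d3 (0.11) and Hyal3 to Foxo3 (0.12). Dtx3l (0.15) and Cyp2d22 (0.17) were nearest to Txnip, and AI467606 (0.16) and S1pr4 (0.22) to Fbxo32. Slc39a8 (0.16) was among the 2 nearest to Foxo1. Otulinl (0.18) came next for Tsc22d3, Rab21 (0.15) for Foxo3, Bik (0.17) and Cdkl2 (0.20) for Ddit4, and Kpna4 and Hexim1 (both 0.19) for Dapl1. Pik3ip1 had the most distant neighbours, Ifngr1 (0.21) and Zfp101 (0.27). Ifngr1, which encodes a chain of the interferon-gamma receptor, had log2 fold changes of 1.32 for Compound 10 in stimulated cells and 1.30 in unstimulated cells, beside 0.92 and 1.32 for Pik3ip1. Among the 9 genes themselves, the closest pairs were Ddit4 and Dapl1 (0.30), Foxo3 and Slfn2 (0.35) and Foxo1 and Slfn2 (0.38), and the most distant was Foxo1 and Fbxo32 (1.88). A small difference also arises between genes that vary little, as Foxo3 and Slfn2 did (0.24 and 0.27 around their own means, against 1.59 for Fbxo32).

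Related genes were followed in lists by role, described by counts and medians. The lists were also chosen with earlier results of these data known, so their counts beside all genes are not independent of that choice. Among 22 tested FOXO targets outside the set, 3 were higher and 11 lower with stimulation under vehicle, where 19.5% of all genes were higher and 19.4% lower, with a median log2 fold change of -0.61 beside -0.06 over all genes. With Compound 10 in stimulated cells 9 were called, each as higher, where 10.4% of all genes were higher, with a median of 0.54 beside 0.04. In unstimulated cells 4 were higher with Compound 10 (Il7r, Klf6, Gadd45a and Bcl6), where 4.65% of all genes were higher. Il7r, which encodes the interleukin-7 receptor chain that keeps naive T cells alive, averaged 160 ± 20.8 CPM in stimulated Compound 10 cells (n = 3) and 31.3 ± 0.122 CPM in stimulated vehicle cells (n = 2), a log2 fold change of 2.36 ± 0.18 (SD for levels, SE for the fold change; edgeR adjusted p = 4.17e-05). Klf6 followed with 1.57 ± 0.15 (edgeR adjusted p = 7.51e-05). With stimulation under vehicle Klf6 fell by a log2 fold change of -1.96 ± 0.15 (edgeR adjusted p = 2.05e-06), and Bcl2l11, which encodes the pro-apoptotic protein BIM, rose by 1.79 ± 0.15 (edgeR adjusted p = 4.62e-06). The interaction was called for 3 of the 22, Rbl2 (1.99 ± 0.41, edgeR adjusted p = 0.0170), S1pr1 (1.08 ± 0.28, edgeR adjusted p = 0.0430) and Sesn1 (0.99 ± 0.19, edgeR adjusted p = 0.0117), all toward a smaller fall on stimulation with Compound 10, where 2.55% of all genes had a higher interaction call. The 3 became 0 to 4 when single libraries were left out, with 0 without the second unstimulated Compound 10 library and 0 without the first stimulated vehicle library. The 9 higher calls became 12 without the 2 deepest libraries and 4 to 10 when single libraries were left out.

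On the PI3K to AKT route that inactivates FOXO proteins, 3 of 22 genes were higher and 3 lower with stimulation under vehicle, where 19.5% of all genes were higher and 19.4% lower. The 3 lower calls became 1 to 5 when single libraries were left out. There the kinase gene Sgk1 rose by a log2 fold change of 1.26 ± 0.20 (edgeR adjusted p = 0.000458) and the PI3K subunit gene Pik3r3 by 1.13 ± 0.22 (edgeR adjusted p = 0.00162). With Compound 10 in stimulated cells 5 were higher and 2 lower, where 10.4% of all genes were higher and 12.8% lower, led by Mapkap1, which encodes a subunit of mTORC2 (1.57 ± 0.18, edgeR adjusted p = 0.000176), and the kinase gene Sgk3 (1.00 ± 0.17, edgeR adjusted p = 0.00175). The 5 became 10 without the 2 deepest libraries and 3 to 10 when single libraries were left out, and the 2 became 0 to 2. Of 13 other mTORC1 brakes, 2 were higher and 4 lower with stimulation under vehicle, against the same shares of all genes. Sesn1, which encodes a sestrin that restrains mTORC1, gave -1.23 ± 0.14 (edgeR adjusted p = 3.7e-05), and Nprl2, from the amino acid-sensing complex, gave -1.80 ± 0.22 (edgeR adjusted p = 6.88e-05). With Compound 10 in stimulated cells 4 were called, each as higher, where 10.4% of all genes were higher. Among them were Sesn1 (0.64 ± 0.13, edgeR adjusted p = 0.00510) and Sesn3 (0.79 ± 0.17, edgeR adjusted p = 0.00542), of which Sesn3 had also risen with stimulation. Sesn1 and Sesn3 are both also on the FOXO target list and are counted among its higher calls, so the lists are not separate there. Those 4 became 7 without the 2 deepest libraries, and between 0 and 7 when single libraries were left out.

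Of 12 thioredoxin, alpha-arrestin and Mondo genes, 4 were higher and 1 was lower with stimulation under vehicle (19.5% and 19.4% of all genes), among them the glucose transporter genes Slc2a3 (1.79 ± 0.17, edgeR adjusted p = 1.12e-05) and Slc2a1 (1.33 ± 0.13, edgeR adjusted p = 1.35e-05). Compound 10 in stimulated cells lowered Slc2a1 by a log2 fold change of -0.51 ± 0.13 (edgeR adjusted p = 0.0141), the only call in that list there (12.8% of all genes were lower), which became 0 to 2 lower calls when single libraries were left out, and Slc2a3 gave -0.51 ± 0.17 (edgeR adjusted p = 0.0511). Of 9 genes of the glucocorticoid receptor, its targets and the TSC22 family, 6 were called with stimulation under vehicle, each as higher (19.5% of all genes), led by Tsc22d2 (3.06 ± 0.13, edgeR adjusted p = 4e-08) and the clock gene Per1 (2.17 ± 0.19, edgeR adjusted p = 5.56e-06). With Compound 10 in stimulated cells 1 was higher, Tsc22d1 (1.99 ± 0.29, edgeR adjusted p = 0.000603), and 3 were lower, among them Tsc22d2 (-0.997 ± 0.129, edgeR adjusted p = 0.000320), where 10.4% of all genes were higher and 12.8% lower.

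Of 5 tested Schlafen genes other than Slfn2, 1 was called with stimulation under vehicle, where 19.4% of all genes were lower: Slfn1 was lower (-1.90 ± 0.26, edgeR adjusted p = 0.000180). The next by p, Slfn9, gave -0.43 ± 0.35 (edgeR adjusted p = 0.361). Compound 10 in stimulated cells lowered Slfn1 (-0.88 ± 0.26, edgeR adjusted p = 0.0271) and raised Slfn8 (0.98 ± 0.30, edgeR adjusted p = 0.0358), where 12.8% of all genes were lower and 10.4% higher. The lower call was lost with upper-quartile factors and without scaling beyond the library totals. Both calls were lost without the first stimulated vehicle library, which left 1 library in that group. Schlafen genes are close paralogs, so the sharing of reads between them is uncertain. Foxo4, the only other FOXO gene that passed the filter, was at 9.26 ± 0.738 CPM in stimulated vehicle cells (n = 2) and 5.91 ± 0.448 CPM in unstimulated vehicle cells (SD, n = 3), a log2 fold change of 0.65 ± 0.24 (edgeR adjusted p = 0.0488). This call was lost without any 1 of the unstimulated libraries, either stimulated vehicle library or the first stimulated Compound 10 library, and without the 2 deepest libraries. It was also lost without scaling beyond the library totals, with no filter on low counts, with only the groups compared and with the index run as a term. For Compound 10 in unstimulated cells the estimate was 0.94 ± 0.23 (edgeR adjusted p = 0.0305), a call lost without any 1 of the unstimulated libraries, either stimulated vehicle library or the 2 deepest libraries, and with only the groups compared. Of 23 other T cell quiescence genes, 9 were higher and 6 lower with stimulation under vehicle (19.5% and 19.4% of all genes). Compound 10 in stimulated cells gave 7 higher and 3 lower (10.4% and 12.8% of all genes), and the 7 became 3 to 9 when single libraries were left out. Btg2, an antiproliferative gene, was higher in both comparisons, by 1.97 ± 0.13 with stimulation (edgeR adjusted p = 8.3e-07) and by 2.02 ± 0.14 with Compound 10 (edgeR adjusted p = 4.17e-05). Vsir, which encodes the inhibitory receptor VISTA, rose by 4.16 ± 0.25 with stimulation (edgeR adjusted p = 4.48e-07) and was lower with Compound 10 by -2.10 ± 0.24 (edgeR adjusted p = 0.000171). The comparisons in stimulated vehicle cells share those libraries, so opposite directions between stimulation and Compound 10 are not independent, and the memory or effector marker levels given above differ between the same groups.

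**Figure D4:**
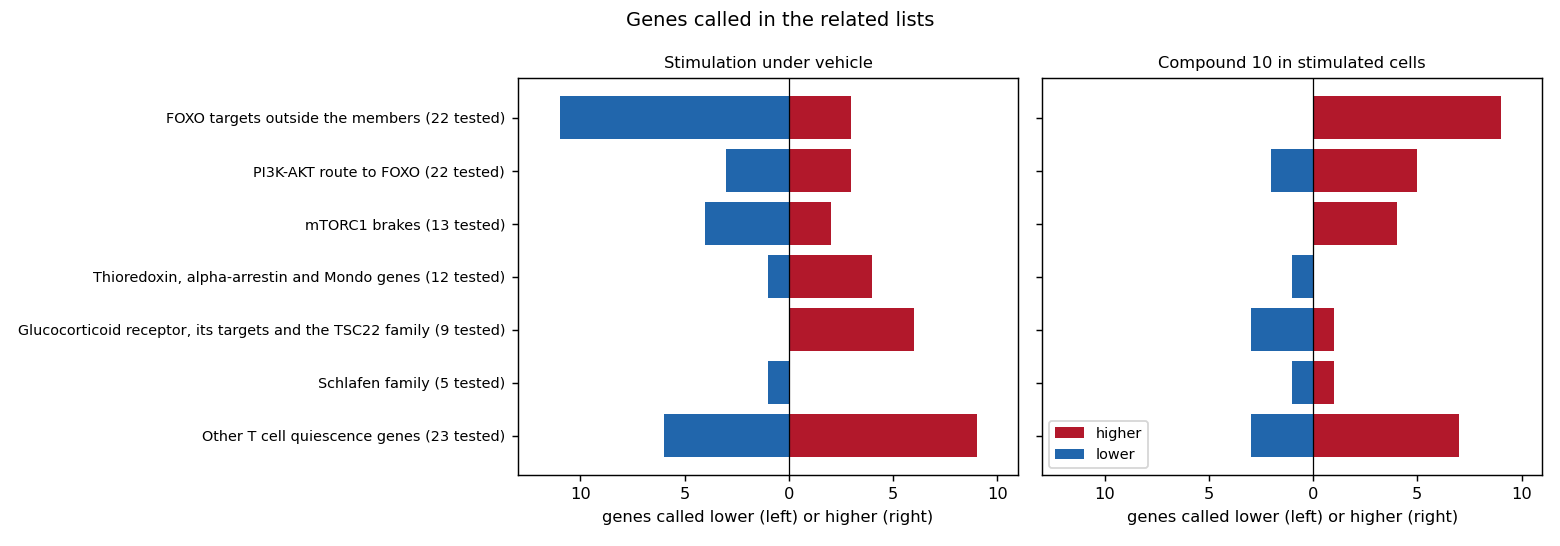
Number of genes called higher (red, right of 0) or lower (blue, left of 0) in each related list, with the number tested, for stimulation under vehicle (left panel) and for Compound 10 in stimulated cells (right panel). The 22 FOXO targets show 11 lower and 3 higher genes in the left panel and 9 higher genes in the right panel.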

How the data were processed

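RNA of 10 libraries of sorted naive CD4 T cells was prepared with a SMART-seq kit that does not record the strand, per the labels' protocols. Trimming with cutadapt and quantification with kallisto against mm10 are named in the submitters' processing notes, with versions not given in the sources used here. Estimated counts and TPM per transcript were deposited by the authors, per the file headers. Of 109617 transcripts, 108214 matched GENCODE release M21 by identifier; the 1403 others, 0.507% to 0.671% of a library's counts, were dropped. Gene sums of the estimated counts were rounded, and gene sums of TPM were not tested.

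All 10 libraries entered 1 fit in edgeR 4.0.16 (limma 3.58.1, R 4.3.3) with a coefficient per group, TMM scaling and the filterByExpr filter. Quasi-likelihood F tests were adjusted by Benjamini-Hochberg over 14417 genes for 5 comparisons, and the fit was tested on simulated data. An SE was derived from each estimate and its F statistic. DESeq2 1.42.0, other scalings, filters and terms, and each library left out were the alternatives. Leaving out the 2 deepest libraries and the differences within runs of sample numbers were added after seeing the data. Deviations from the group means gave r = -0.279 to 0.331 for libraries with the same replicate number (13 pairs, 2 above 0.1). In groups of 2 libraries the deviations mirror each other, so these values cannot exclude a shared deviation. The labels do not say that replicate numbers pair libraries, so the replicate block was an alternative and not part of the main fit. Libraries of the same index run, a run of sample numbers, gave r = -0.052 to 0.464 (12 pairs, 3 above 0.1), and the run was tried as a term.

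The 9 genes and the related lists were chosen with earlier results of these data known. The text names all 9 genes in each comparison, the 2 nearest profiles of each (1 is not reported here), and up to 2 genes per list with the smallest adjusted p in stimulation under vehicle and in Compound 10 in stimulated cells. Genes of the FOXO target list named for the interaction or unstimulated cells, and Foxo4 there, fall outside that rule and were named after their values were seen. The same holds for Sesn2 and Sesn3 with stimulation under vehicle. Windows before start sites are from RefSeq. Depth sets the precision of each level, and 95% intervals of log2 fold changes cover the spread between libraries.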

Additional observations from a re-analysis of the deposited data

How the results depend on the processing

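No called direction of the 9 genes reversed under any alternative. For Compound 10 in stimulated cells, 4 of the 9 genes were called, against 7 with the index run (the run of sample numbers) as a term, 7 without the 2 deepest libraries and 1 to 4 with single libraries left out. For Compound 10 in unstimulated cells, 2 were called, against 1 with only the groups compared, 1 without the 2 deepest libraries and 1 to 2 with single libraries left out. For the interaction, 0 were called, against 1 with upper-quartile factors, 2 with no filter on low counts, 1 with the replicate block, 2 with the index run as a term, 1 with DESeq2 and 0 to 1 with single libraries left out. The replicate block (same-numbered libraries are not paired by the labels) left 5 and 2 calls for stimulation under vehicle and Compound 10 in unstimulated cells, gave 5 for Compound 10 in stimulated cells, adding Slfn2 (-0.43, edgeR adjusted p = 0.0206), and 3 for stimulation with Compound 10, losing Txnip (-0.77, edgeR adjusted p = 0.0526). The cause of these shifts was not tested.

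Over all genes, 3816 were called for stimulation with Compound 10, against 6029 without scaling beyond library totals. Without scaling the share of called genes that were higher was 13.4%, against 48.3%, for stimulation with Compound 10 and 15.4%, against 50.1%, under vehicle. With upper-quartile factors it was 57.8%, against 44.8%, for Compound 10 in stimulated cells and 50.9%, against 38.5%, for the interaction, where no scaling gave 62.7%. No scaling gave 42.5%, against 55.1%, for Compound 10 in unstimulated cells. There, 1215 genes were called, against 122 with only the groups compared, 2403 with the index run as a term, 598 without the 2 deepest libraries and 1888 with DESeq2. In stimulated cells, Compound 10 gave 3350 called genes, against 4595 with the index run as a term. For the interaction, 956 genes were called, against 1448 with no filter, 1504 with the replicate block, 2167 with the index run as a term and 1671 with DESeq2. Leaving out single libraries gave as few as 3568 of 5617 calls for stimulation under vehicle, 2347 for stimulation with Compound 10, 1589 of 3350 for Compound 10 in stimulated cells, 325 for Compound 10 in unstimulated cells and 191 for the interaction. The scaling decides how stimulation values are centred: without it the median of all genes moved to -0.60 with Compound 10 and -0.83 under vehicle. Low counts limit Dapl1 and, in stimulated cells, Fbxo32.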
